A study of Mus musculus with 4 samples.

Results

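The sodium, potassium and calcium channel genes of engineered muscle, a 3D tissue of mouse skeletal muscle grown in culture, were followed after electrical stimulation on 4 arrays. Members were the gene names on the array that begin with Kcn, with Cacn, or with Scn followed by a number and the letter a or b. Cacna1s, the pore subunit of the skeletal muscle L-type calcium channel, was left out by the rule. This gave 134 of 31829 gene names, with 95 named for potassium channels, 25 for calcium channels and 14 for sodium channels. The rule used names alone and no measured value. It therefore takes in more than voltage-gated pores: inward rectifier, two-pore and calcium-activated potassium channels, accessory subunits, and Kcnq1ot1, a non-coding RNA of the Kcnq1 locus that encodes no channel. The 134 names had 192 probes, 48 of them with several, and the brightest probe of a name, by its mean log2 signal, stood for it.

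The 4 groups were muscle at 0 min after 30 min of acute EPS, muscle at 0 min without EPS, muscle 5 h after 30 min of acute EPS, and muscle at the 5 h time point without EPS. EPS, which the labels write as electrical plus stimulation, is taken to be electrical pulse stimulation, a means to make cultured muscle contract. All 4 groups were the same kind of tissue, and the series title concerns hypoxia and the peptide hormone gene Cck; the oxygen level, the cells the tissue was built from, the pulse settings and any pooling of tissues are not given in the sources used here. Each group had 1 array, so there is no spread between tissues and no test between groups, and a difference is described by its size against a rule of 2-fold.

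Excitable cells fire when sodium channels open and carry Na+ inward, and they return to rest as potassium channels let K+ out. In skeletal muscle the action potential runs along the fibre and down its tubules, where the L-type calcium channel senses the voltage and triggers release of stored Ca2+. Most channels are a pore-forming alpha subunit with accessory subunits that set its gating and its number at the membrane, and immature muscle makes channels that adult fibres lose.

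A value called a level is the log2 of the probe signal minus the array's 75th percentile, so a level of 0 lies at that percentile. It compares arrays for 1 probe, and it does not rank genes, since the brightness of a probe also depends on its sequence. The 75th percentile was 1093 to 1492 intensity units over the 4 arrays, and 19127 to 19385 gene names were well above background on each. Probes printed 10 times gave the error between spots: the median standard deviation of an EPS difference at 0 min was 0.08 on the log2 scale, but 0.29 for probes with a level under -4. All 13 listed skeletal muscle markers were well above background on the 4 arrays, with a summed log2 level of 10.1 for EPS and 9.92 for no EPS at 0 min, and of 9.69 for EPS and 9.83 for no EPS at 5 h. Markers of other cell types were also read on all 4 arrays: 7 of 8 for fibroblasts, 4 of 6 for smooth muscle, 4 of 5 for cardiac muscle, 2 of 5 for endothelium, 4 of 6 for leukocytes, 3 of 6 for neurons and 3 of 6 for Schwann cells. Among them were the smooth muscle actin gene Acta2, with levels of 5.36 to 6.18, and Smtn, Tagln, Myh6, Kdr, Pecam1, Itgam, Csf1r and Cd3e. Within the same lists Syt1 (neurons), Myh11 (smooth muscle), Myl7 (cardiac muscle), Cdh5, Tek and Emcn (endothelium) and Ptprc (leukocytes) were well above background on no array. Snap25, a synaptic protein of neurons, had levels of 2.29 for EPS and 2.62 for no EPS at 0 min, and of 1.74 for EPS and 2.21 for no EPS at 5 h. In whole tissue, fewer cells of a type and less RNA per cell cannot be told apart.

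Of the 134 channel names, 50 were well above background on all 4 arrays, 24 on 1 to 3 arrays and 60 on none. That is 37.3% on all 4 arrays, against 56.8% of all gene names. Of all 31829 gene names, 2817 were well above background on 1 to 3 arrays and 10938 on none. The number per array was 64 for EPS and 61 for no EPS at 0 min, and 60 for EPS and 59 for no EPS at 5 h. By class, 33 of 95 potassium channel names, 10 of 25 calcium channel names and 7 of 14 sodium channel names were well above background on all 4. Of 41 channel genes listed as known in muscle, 40 were on the array, 22 were well above background on all 4 arrays and 11 on none.

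**Figure D1:**
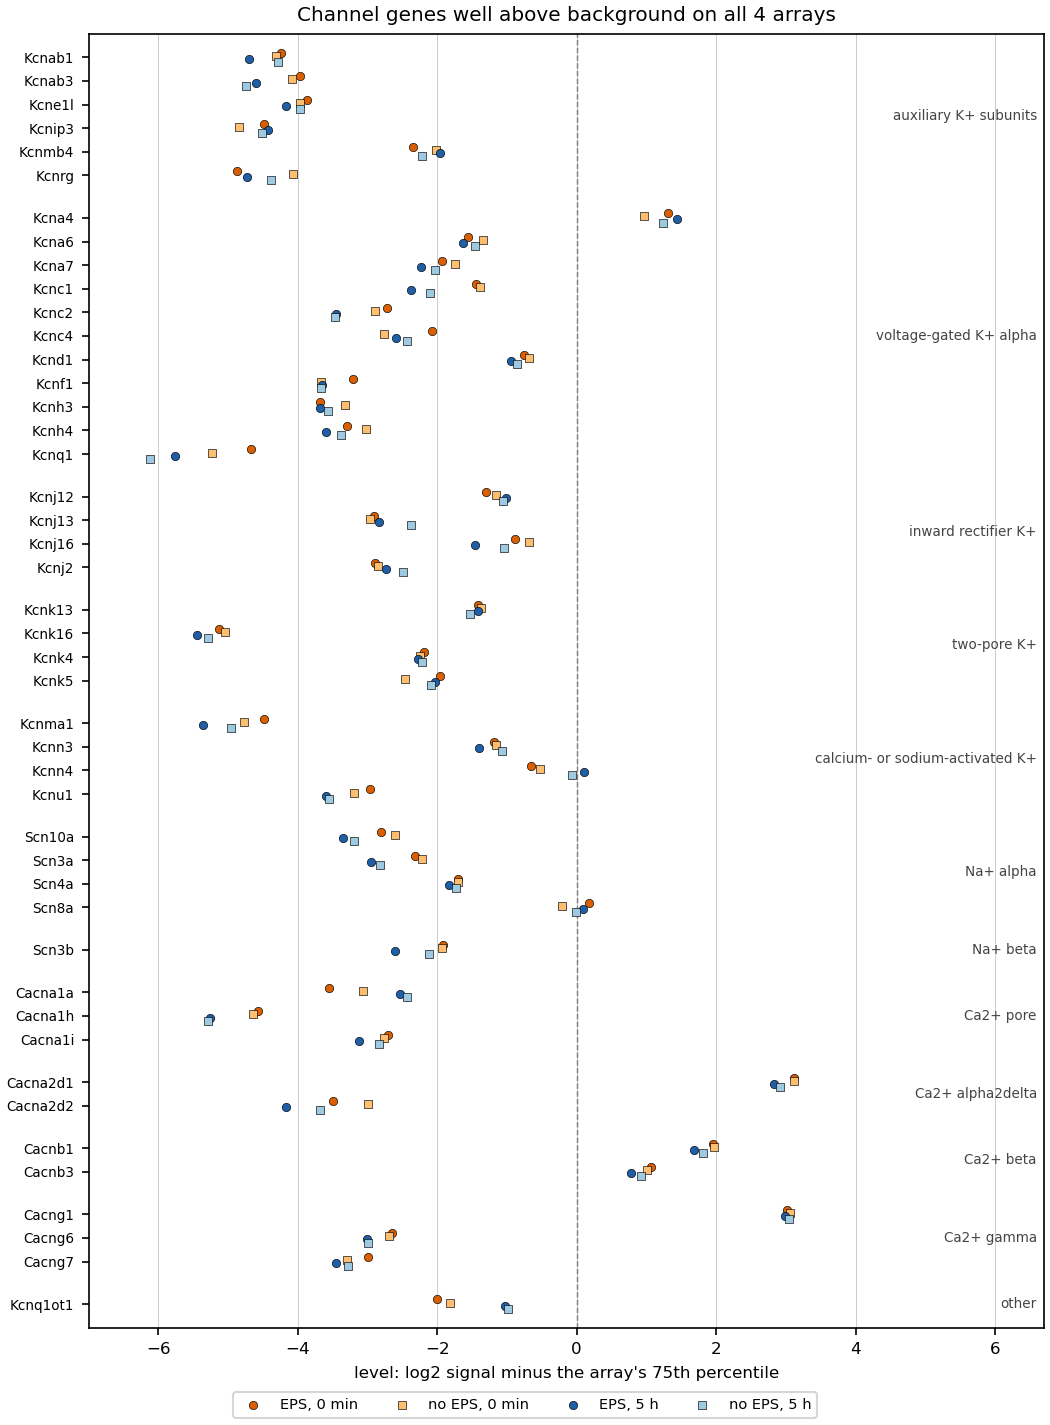
Levels of 45 of the 50 channel genes well above background on all 4 arrays (x axis, log2 signal minus the array's 75th percentile; rows, genes by subfamily; 1 point per array, so no error bars). The 4 points of a gene mostly lie close together: Cacng1 spans 0.06 over the arrays, while Kcnq1ot1 and Cacna1a sit higher on both 5 h arrays than on both 0 min arrays.

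Among sodium channel pores, 5 of 10 were well above background on every array, among them Scn4a, Scn3a, Scn8a and Scn10a. Scn4a, the adult skeletal muscle sodium channel, had levels of -1.70 for EPS and -1.70 for no EPS at 0 min, and of -1.84 for EPS and -1.73 for no EPS at 5 h. The 4 values lay within a narrow band. The brain-type channel gene Scn2a1, which RefSeq calls Scn2a, was well above background on 3 arrays and Scn1a on the 2 arrays without EPS. Scn7a, Scn9a and Scn11a were well above background on no array. Of the beta subunits, which hold the pore at the membrane and tune its inactivation, Scn3b was well above background on all 4 arrays and Scn2b and Scn4b on none.

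Of the 10 calcium channel names measured on all 4 arrays, 3 were accessory subunits of the skeletal muscle L-type complex. Cacng1, the gamma subunit of the skeletal muscle L-type complex, gave the steadiest values, with levels of 3.02 for EPS and 3.06 for no EPS at 0 min, and of 2.99 for EPS and 3.04 for no EPS at 5 h. Cacna2d1, the alpha2delta subunit of that complex, stood at 3.11 for EPS and 3.12 for no EPS at 0 min, and at 2.84 for EPS and 2.92 for no EPS at 5 h. Cacnb1, its beta subunit, which brings the pore to the membrane, stood at 1.96 for EPS and 1.97 for no EPS at 0 min, and at 1.68 for EPS and 1.81 for no EPS at 5 h. By these probes, the 3 accessory subunits differed by at most 0.14 between EPS and no EPS at either time. The other Cacna2d1 probe differed by -0.22 at 5 h and -0.11 at 0 min. Cacnb3, another beta subunit, had levels of 1.07 for EPS and 1.01 for no EPS at 0 min, and of 0.77 for EPS and 0.92 for no EPS at 5 h. Of the 9 pore genes other than the one left out, Cacna1a (P/Q-type), Cacna1h and Cacna1i (both T-type, which open at small depolarisations) were well above background on all 4 arrays. Cacna1c and Cacna1d, the L-type pores of heart, brain and endocrine cells, were well above background on no array, nor were Cacna1b and Cacna1f. Cacna2d2 and the gamma subunits Cacng6 and Cacng7 completed the calcium channel names measured on every array. Cacna2d3, Cacna2d4, Cacng4, Cacng5 and Cacng8 were well above background on no array, nor were the other probes of Cacna1i, Cacna2d2 and Cacng7.

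Potassium channel names measured on all 4 arrays included 14 of 40 voltage-gated alpha subunits, 4 of 15 inward rectifiers, 4 of 14 two-pore channels and 4 of 8 calcium- or sodium-activated channels. Kcna4, a fast-inactivating channel, had levels of 1.31 for EPS and 0.96 for no EPS at 0 min, and of 1.44 for EPS and 1.24 for no EPS at 5 h, with EPS above no EPS at each time. The voltage-gated members Kcna6, Kcna7, Kcnc1, Kcnc2, Kcnc4, Kcnd1, Kcnf1, Kcnh3, Kcnh4 and Kcnq1 were also measured on all 4. Among these, the other probes of Kcna6 and Kcnd1 were well above background on no array. Kcnj2 and Kcnj12, the strong inward rectifiers that hold muscle at its resting potential, had levels at 0 min of -2.89 and -1.30 for EPS and of -2.85 and -1.16 for no EPS. At 5 h they stood at -2.73 and -1.02 for EPS and at -2.49 and -1.05 for no EPS. Kcnj13 and Kcnj16 were the other inward rectifiers on all 4 arrays. Kcnj11, the pore of the ATP-sensitive channel of muscle, was well above background on the 2 arrays at 0 min, and Kcnj8, the pore of its vascular form, on none.

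Two-pore channels carry the background K+ leak; Kcnk4, Kcnk5, Kcnk13 and Kcnk16 were measured on all 4 arrays. Of the channels opened by Ca2+, Kcnma1 (the large-conductance BK channel), Kcnn3 (a small-conductance channel of immature and denervated muscle) and Kcnn4 (the intermediate-conductance channel) were measured on all 4, as was Kcnu1, a relative of Kcnma1 known from sperm. The accessory subunits on all 4 arrays were Kcnab1, Kcnab3, Kcne1l, Kcnip3, Kcnmb4 and Kcnrg. The other Kcne1l probe was well above background on no array. Not well above background on any array were the voltage-gated Kcna1, Kcna2, Kcna10, Kcnb2, Kcnd2, Kcng1, Kcng3, Kcng4, Kcnh1, Kcnh5, Kcnh6, Kcnq3, Kcnq5, Kcns1, Kcns2, Kcns3, Kcnv1 and Kcnv2. The same held for Kcnj1, Kcnj3, Kcnj4, Kcnj5, Kcnj6, Kcnj9, Kcnj10, Kcnj14 and Kcnj15, for Kcnk1, Kcnk3, Kcnk10, Kcnk12 and Kcnk18, and for Kcnn1, Kcnn2, Kcnt1 and Kcnt2. Kcnab2, Kcne1, Kcne2, Kcne3, Kcnip1, Kcnip2, Kcnip4, Kcnmb1 and Kcnmb3 were the accessory subunits in that state. A probe not well above background leaves only an upper limit for its gene and does not show that the gene was silent.

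The comparison of EPS with no EPS at 0 min asks which channel genes differed as soon as stimulation ended. None of 57 measured channel genes was 2-fold higher or lower, where 0.539% of all measured gene names were 2-fold higher and 0.792% were 2-fold lower. The channel genes were spread around 0, with 30 above and 27 below and a median log2 difference of 0.05, against a median of 0.02 over all 18554 measured gene names. By class, the medians were 0.00 for 8 sodium channel names, 0.05 for 12 calcium channel names and 0.05 for 37 potassium channel names.

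The larger positive differences at 0 min were in potassium channels. Kcnc4, a fast-activating channel of the Shaw family, had a level of -2.08 for EPS against -2.76 for no EPS, a log2 difference of 0.67. Its family member Kcnc1 differed by -0.06. Kcnj11 was at -4.98 for EPS and -5.62 for no EPS, a difference of 0.64. The Kcnj11 probe is dim, and the scanner software's own error of this difference was 0.35. The other Kcnj11 probe went the opposite way: it was not well above background for EPS, at -6.40, and read -3.86 for no EPS, at least 5.10-fold lower, so the direction for Kcnj11 is not settled. Kcnq1, a slow repolarising channel, was at -4.67 for EPS and -5.24 for no EPS. Kcnk5, an acid-sensitive leak channel, was at -1.96 for EPS and -2.47 for no EPS. Kcnf1, a silent subunit that alters the channels of other families, was at -3.21 for EPS and -3.67 for no EPS by its brightest probe and at -3.33 for EPS and -4.18 for no EPS by its other probe, so that both probes gave a positive difference, of 0.46 and 0.85. A smaller positive difference, of 0.39, was seen for Scn8a, a nodal sodium channel.

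On the lower side at 0 min stood Kcnrg, a soluble protein that holds back potassium channel assembly. Its level was -4.88 for EPS against -4.07 for no EPS, a log2 difference of -0.81, and its other probe read -5.51 for EPS against -4.57 for no EPS, a difference of -0.94. Both probes thus read lower with EPS, by less than 2-fold, and under the normexp background correction the brightest gave -0.33. Cacna2d2 was at -3.49 for EPS and -2.99 for no EPS, Cacna1a at -3.55 for EPS and -3.07 for no EPS, and Kcnh2, the rapid delayed rectifier best known from the heart, at -5.19 for EPS and -4.71 for no EPS. Their log2 differences were -0.50, -0.48 and -0.48. Under normexp they were -0.26, -0.21 and 0.04, so Kcnh2 did not keep its sign. The second Cacna1a probe differed by -0.15. Kcnh3, a brain channel of the same family as Kcnh2, differed by -0.36, and Kcnmb4, a BK channel beta subunit, by -0.34, with -0.26 by its other probe.

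**Figure D2:**
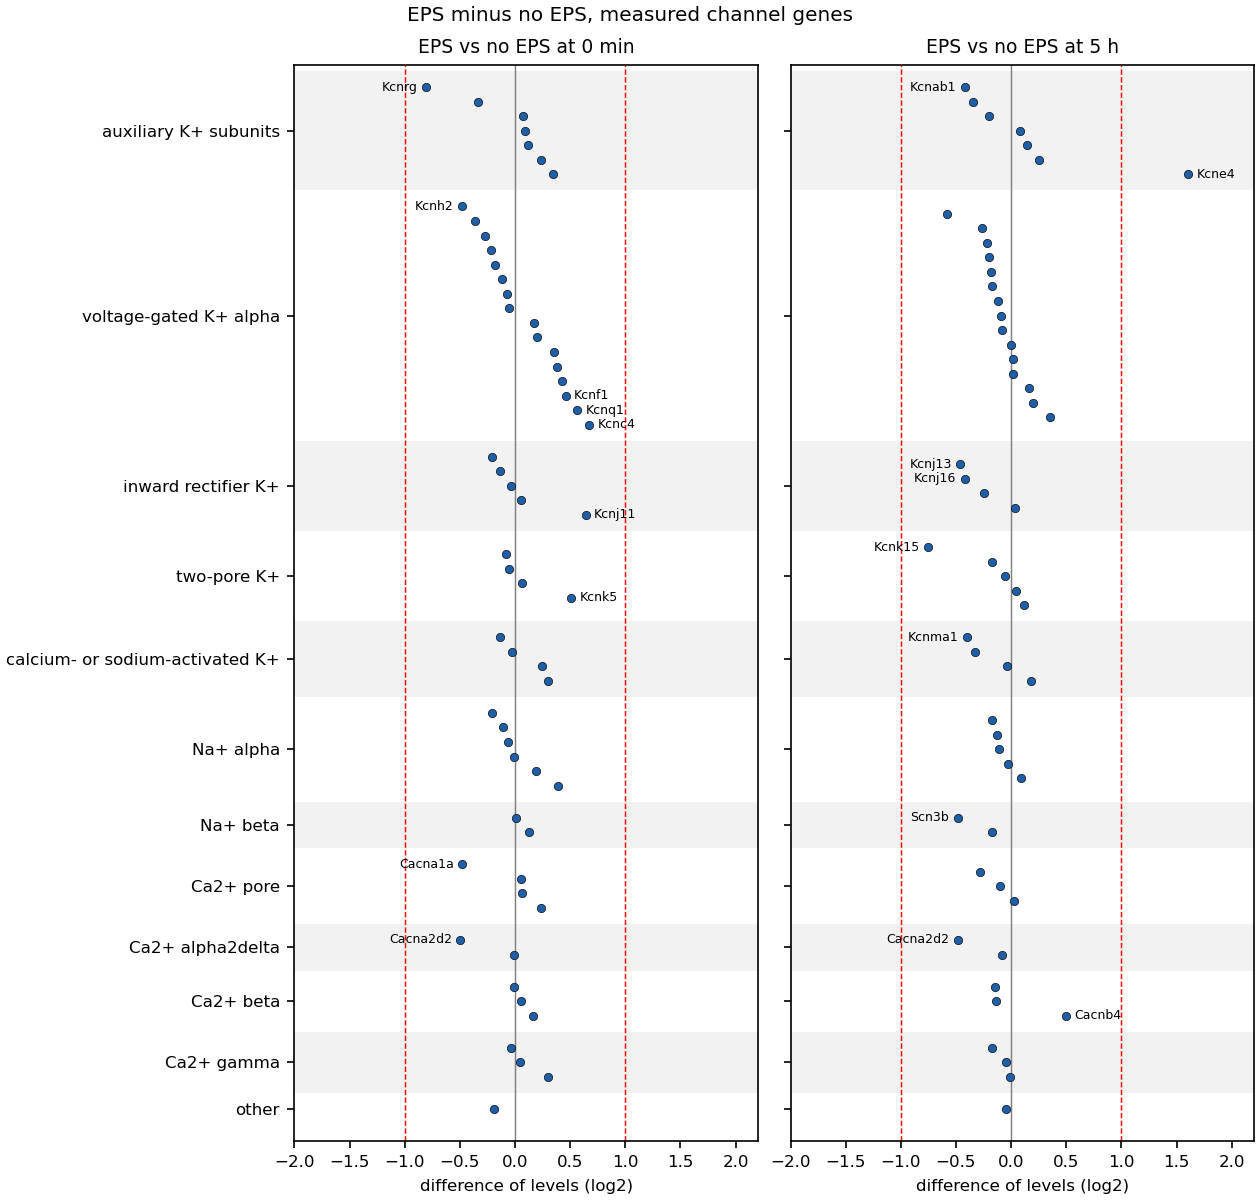
Log2 difference of levels, EPS minus no EPS, for each measured channel gene at 0 min (left, 57 genes) and 5 h (right, 54 genes). Rows are subfamilies, points are genes, each from 1 array per group, and dashed lines mark 2-fold; Kcne4 at 5 h is the only point beyond a line.

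The comparison of EPS with no EPS at 5 h singled out Kcne4. It was the only 1 of 54 measured channel genes that was 2-fold higher, and none was 2-fold lower, where 0.692% of all measured gene names were 2-fold higher and 0.524% were 2-fold lower. KCNE4 is a small accessory subunit with 1 membrane span that binds voltage-gated potassium channels, Kcnq1 and Kcna3 channels among them, and reduces their current in cell lines. The 2 probes for Kcne4 lie on the plus strand of chromosome 1, at chr1:78815838-78815897 for the brightest and chr1:78814337-78814396 for the other (mm9, as the array files give them). They are shown because they are the separate readings behind this result; each line holds the first 30 of the 60 bases of the probe. Whether a probe lies in coding sequence or a UTR was not assigned, since no annotation of mm9 was used here.
Kcne4, brightest probe: gagaaagatgtgttgacttaaagacacagt
Kcne4, other probe: tatgtccttctatggcgttttcctgatcgg

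By the brightest probe, the processed signal of Kcne4 was 89.9 intensity units for EPS and 25.3 for no EPS at 5 h. The levels were -4.05 for EPS and -5.66 for no EPS, a log2 difference of 1.61, or 3.05-fold higher, with a software error of 0.32. Under normexp, a background correction whose offset shrinks dim signals, the difference was 0.64 and no longer 2-fold. At 0 min the same probe read -6.71 for EPS and -7.11 for no EPS and was not well above background on either array. The other probe was well above background on the EPS array at 5 h alone, with a level of -3.91, against -8.40 for no EPS at 5 h. Taken against the lowest level that counts as well above background on the dim array, this was at least 5.14-fold higher. Both probes therefore placed EPS at 5 h above the other 3 arrays. Of the potassium channel pores it is known to bind, Kcnq1 was at -5.76 for EPS and -6.11 for no EPS at 5 h, a difference of 0.35 with a software error of 0.40, and Kcna3 was not well above background on either array.

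The other measured channel genes differed less at 5 h, and most were below 0. In all, 37 of 54 (68.5%) were below 0, against 56.6% of all measured gene names, with a median of -0.11 against -0.03. With arrays centred on their median instead of the 75th percentile, 30 of 54 were below 0, with a median of -0.02 against 0.05 over all gene names. On the lower side, Kcnk15, a two-pore channel, was at -5.81 for EPS and -5.05 for no EPS, a difference of -0.75 with a software error of 0.39. The beta subunit Scn3b was at -2.61 for EPS and -2.12 for no EPS, a difference of -0.49. These were lower with EPS, as were Cacna2d2 by -0.48, Kcnj13 by -0.46, Kcnab1 and Kcnj16 by -0.42 each, and the BK channel pore Kcnma1 by -0.40. On the higher side, Cacnb4, a beta subunit best known from the brain, was at -5.49 for EPS and -5.99 for no EPS, both near the detection limit. Kcnmb4 differed by 0.25, or 0.16 as the mean of its probes, and Kcna4 by 0.20. By class, 6 of 7 sodium, 9 of 11 calcium and 22 of 36 potassium channel names were below 0. All the marker lists had medians below 0 at 5 h too. Endothelium had -0.43 with 2 of 2 below 0, fibroblasts -0.28 with 7 of 7, and Schwann cells -0.28 with 4 of 4. Cardiac muscle had -0.27 with 3 of 4, neurons -0.25 with 4 of 5, and leukocytes -0.15 with 3 of 4. Skeletal muscle had -0.09 with 10 of 13, and smooth muscle -0.02 with 2 of 4. The summed log2 level of the fibroblast markers was 7.81 for EPS and 8.03 for no EPS. The part of these cell types in the result was not tested.

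**Figure D3:**
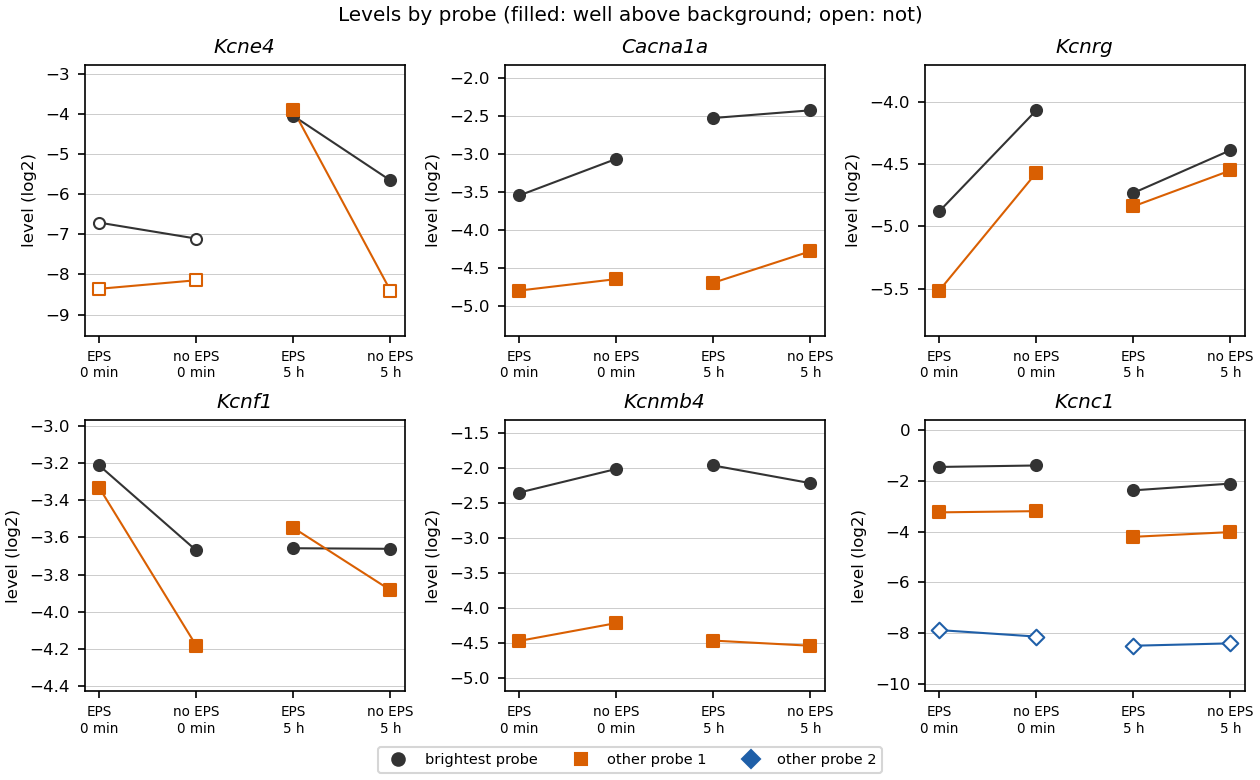
Level by probe for 6 channel genes with several probes (y axis, log2 signal minus the array's 75th percentile; x axis, the 4 arrays; 1 spot value per point, no error bars; lines join EPS and no EPS of the same time). Filled points are well above background and open points are not; both Kcne4 probes read highest for EPS at 5 h, both Kcnrg probes read lowest for EPS at 0 min, and the 2 Cacna1a probes do not show the same pattern.

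The comparison of 5 h with 0 min was made separately after EPS and without EPS, on different arrays for each. The same arrays also gave the EPS differences at 0 min and 5 h, so shifts in these comparisons are not separate evidence. After EPS, 1 of 55 measured channel genes was 2-fold higher (Cacna1a) and 1 was 2-fold lower (Kcnq1), where 2.4% of all measured gene names were 2-fold higher and 3.65% were 2-fold lower. Without EPS, none of 53 was 2-fold higher or lower, where 1.75% and 2.96% of all measured gene names were. Below 0 stood 40 of 55 channel genes after EPS (72.7%, against 57.5% of all gene names) and 32 of 53 without EPS (60.4%, against 52.5%). The median log2 difference was -0.28 after EPS and -0.11 without EPS, against -0.08 and -0.02 over all gene names. The 25 dimmer of the 50 channel genes on all arrays had a median of -0.46 after EPS, and the 25 brighter ones had -0.09. All gene names in the same level ranges had -0.18 and -0.05, so the shift was larger in the dimmer ones. The scaling bears on these signs: with arrays centred on their median, the median of all gene names lay 0.18 higher after EPS and 0.13 higher without EPS. All gene names past 2-fold after EPS then numbered 736 higher and 413 lower, against 443 higher and 672 lower with the 75th percentile.

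All 8 measured sodium channel names were lower at 5 h than at 0 min after EPS, with a median log2 difference of -0.54. Scn3b was at -2.61 at 5 h and -1.92 at 0 min after EPS, and at -2.12 at 5 h and -1.93 at 0 min without EPS. The Scn3b difference was the larger after EPS, at -0.68 against -0.19 without EPS. The pores Scn3a and Scn10a, known from embryonic brain and from sensory neurons, were lower to about the same extent with and without EPS: Scn3a differed by -0.62 after EPS and -0.60 without, and Scn10a by -0.55 after EPS and -0.58 without. The muscle pore Scn4a differed by -0.14 after EPS and -0.03 without. Of the sodium channel names measured without EPS, 5 of 8 were below 0.

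Of 12 measured calcium channel names, 10 were below 0 at 5 h after EPS, with a median of -0.29, and 9 of 11 without EPS, with a median of -0.15. Cacna1h was at -5.26 at 5 h and -4.57 at 0 min after EPS, and at -5.29 at 5 h and -4.64 at 0 min without EPS, but its other probe differed by only -0.01 in both. Cacna2d2 was at -4.17 at 5 h and -3.49 at 0 min after EPS, and at -3.68 at 5 h and -2.99 at 0 min without EPS. By this probe Cacna2d2 differed by -0.68 and -0.69, almost the same amount with and without stimulation. The other Cacna2d2 probe was well above background on no array. Cacna1a went the other way, with levels of -2.53 at 5 h and -3.55 at 0 min after EPS, and of -2.43 at 5 h and -3.07 at 0 min without EPS. This was 2.02-fold higher after EPS, with a software error of 0.22, and a log2 difference of 0.64 without EPS. The difference after EPS was 0.52 under normexp and 0.56 as the mean of both probes, neither of them 2-fold. Its other probe, close by on the same strand of chromosome 8, gave 0.10 after EPS and 0.37 without EPS.

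Cacna1a probes are shown because they gave different readings; their positions are chr8:87163723-87163782 for the brightest and chr8:87163946-87164005 for the other, on the plus strand (mm9), with the first 30 of 60 bases of each.
Cacna1a, brightest probe: tttatcatctcgattgaatctttcgttttc
Cacna1a, other probe: gtcctgcttgaaataacaaaagaaaaaaga

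Potassium channels were divided at 5 h after EPS, with 22 of 35 below 0 and a median of -0.19. Kcnq1 was at -5.76 at 5 h and -4.67 at 0 min after EPS, 2.13-fold lower with a software error of 0.31, and at -6.11 at 5 h and -5.24 at 0 min without EPS, a difference of -0.88. After EPS the difference was under 2-fold with 3 other settings, at -0.60 under normexp, -0.89 under quantile normalization and -0.91 under median centring. The name has 1 probe, at chr7:150612887-150612946 on the plus strand (mm9). Kcnq1ot1, the non-coding RNA read from the opposite strand of that locus, was higher at 5 h in both settings. Its level was -1.03 at 5 h and -2.0 at 0 min after EPS, and -0.99 at 5 h and -1.82 at 0 min without EPS. The differences were 0.97 after EPS and 0.83 without EPS by the brightest probe, and 1.0 and 0.68 by the other. The brightest probe thus stayed just short of 2-fold.

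The Shaw-family channels Kcnc1, Kcnc2 and Kcnc4, which open at strong depolarisation and shorten the action potential, lay lower at 5 h than at 0 min after EPS. Kcnc1 was at -2.37 at 5 h and -1.45 at 0 min after EPS, a difference of -0.92, and at -2.11 at 5 h and -1.39 at 0 min without EPS, a difference of -0.71. A second Kcnc1 probe gave -0.96 after EPS and -0.83 without EPS, and the remaining probe was well above background on no array. Kcnc2 differed by -0.74 after EPS and -0.58 without EPS. For Kcnc4 the signs differed, at -0.52 after EPS and 0.33 without EPS.

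Kcnma1 was at -5.36 at 5 h and -4.48 at 0 min after EPS, a difference of -0.88, against -0.18 without EPS. A second Kcnma1 probe was well above background on 1 array alone, no EPS at 0 min, at -3.60, which made it at least 6.37-fold lower at 5 h without EPS. The probes thus did not give the same contrast between the settings, and the remaining probe was well above background on no array. Kcnab3, a beta subunit of voltage-gated channels, differed by -0.63 after EPS and -0.66 without EPS. On the higher side, Kcnn4 was at 0.11 at 5 h and -0.66 at 0 min after EPS, a difference of 0.77, and differed by 0.45 without EPS. Kcnmb4 differed by 0.39 after EPS and -0.20 without EPS by its brightest probe. As the mean of its probes it differed by 0.20 after EPS and -0.26 without EPS. Kcnj13, an inward rectifier of epithelia, differed by 0.08 after EPS and 0.59 without EPS. Kcnj2 differed by 0.16 after EPS and 0.36 without EPS, and Kcnj12 by 0.28 after EPS and 0.11 without EPS. These strong rectifiers of muscle were above 0 in both settings, while the inward rectifier Kcnj16 differed by -0.58 after EPS and -0.36 without EPS. Of the measured voltage-gated alpha subunits, 11 of 15 were below 0 after EPS and 9 of 15 without EPS. Of all measured gene names, 57.5% were below 0 after EPS and 52.5% without EPS.

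**Figure D4:**
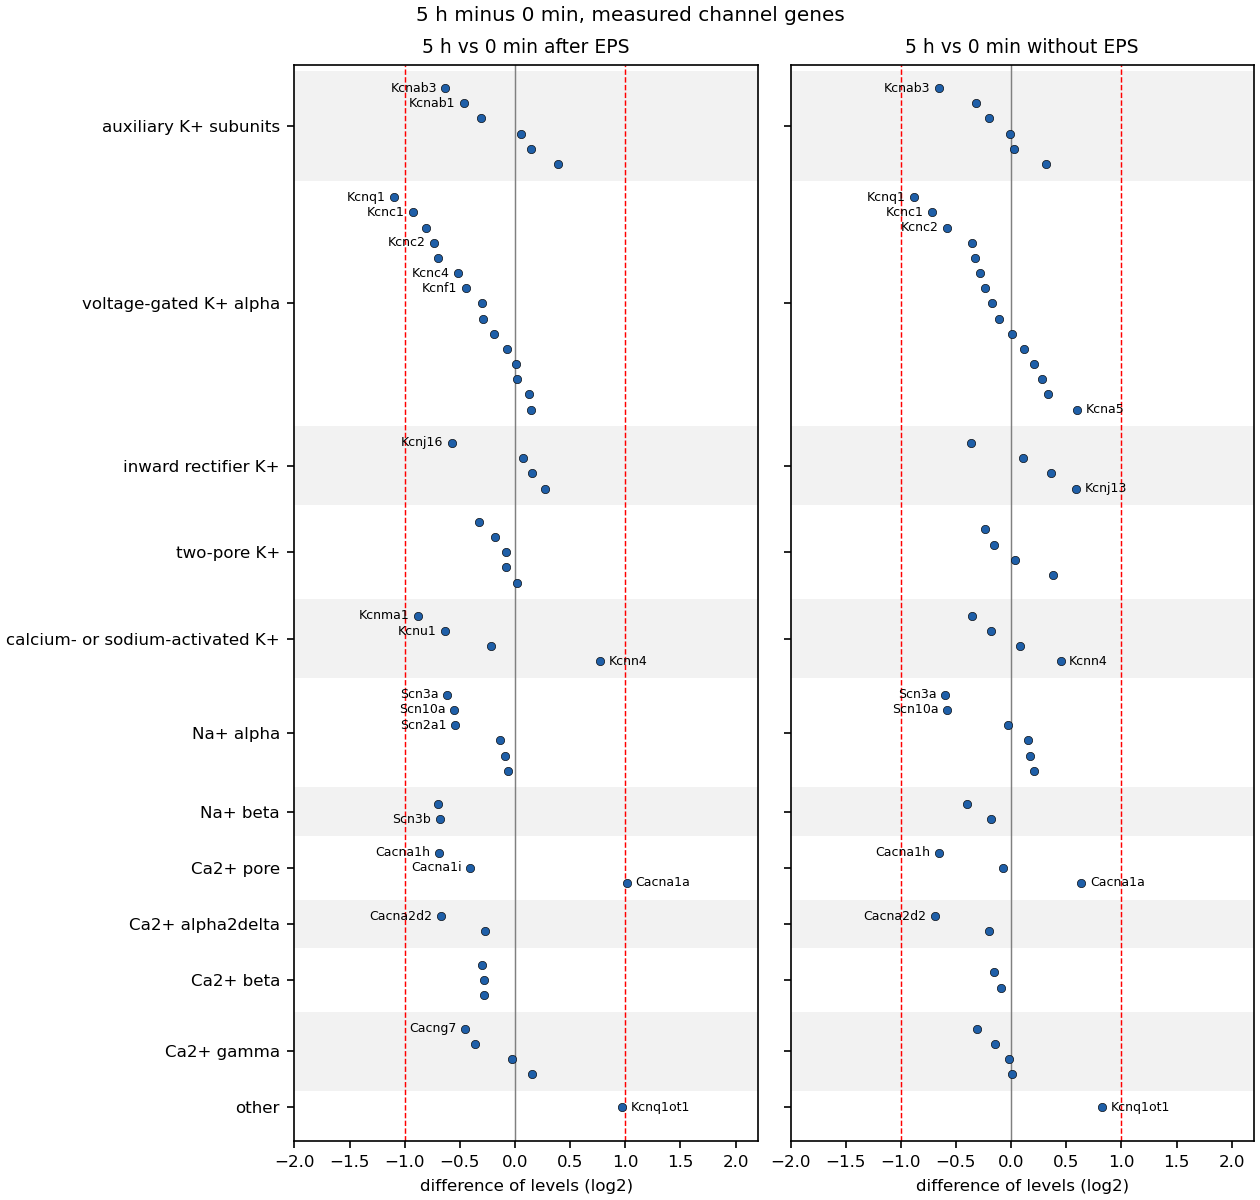
Log2 difference of levels, 5 h minus 0 min, for each measured channel gene after EPS (left, 55 genes) and without EPS (right, 53 genes). Rows are subfamilies, points are genes, each from 1 array per group, and dashed lines mark 2-fold; all 8 sodium channel points lie left of 0 after EPS, and Cacna1a and Kcnq1 pass the lines there.

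The time difference of most channel genes had the same sign in both settings. Of the 50 measured on all arrays, 36 (72%) had the same sign after EPS as without EPS, 27 of them below 0 in both, against 79.0% of all gene names. Across these genes Pearson's r was 0.74, against 0.78 across all gene names; genes are not independent replicates, and the 4 arrays lie on 1 slide. For the EPS difference, 31 of 50 (62%) had the same sign at 5 h as at 0 min, against 58.8% of all gene names, with r = 0.25 against 0.28. Channel genes thus resembled the rest of the array on both counts. Skeletal muscle markers moved with the time difference after EPS: 11 of 13 were below 0, with a median of -0.44, and without EPS 10 of 13 were, with a median of -0.16. Other marker lists were lower too after EPS: smooth muscle had a median of -0.74 with 3 of 4 below 0, fibroblasts -0.57 with 6 of 7, cardiac muscle -0.52 with 4 of 4, endothelium -0.51 with 2 of 2, Schwann cells -0.42 with 4 of 4, neurons -0.22 with 2 of 3 and leukocytes -0.07 with 2 of 4. Without EPS their medians were -0.62, -0.12, -0.28, -0.09, -0.44, -0.03 and -0.26 in the same order. The part of these cell types in the channel values was not tested.

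The difference of the EPS effects, at 5 h minus at 0 min, could be taken for 50 channel genes. It equals the time difference after EPS minus that without EPS and uses the same arrays, so it is not separate evidence. Of the 50 genes, 1 was 2-fold lower and none was 2-fold higher, where 0.99% of all measured gene names were 2-fold lower and 1% were 2-fold higher. Under normexp, quantile normalization and median centring none was 2-fold lower. Kcnc4 had a log2 difference of effects of -0.85, from -0.17 at 5 h and 0.67 at 0 min, and Kcnma1 had -0.70, from -0.40 at 5 h and 0.30 at 0 min. For Kcnma1 the second probe went against the 0 min value, with -6.82 for EPS and -3.60 for no EPS, at least 6.09-fold lower. At the other end Kcnmb4 had 0.59, from 0.25 at 5 h and -0.34 at 0 min, and Kcnrg 0.47, from -0.34 at 5 h and -0.81 at 0 min. As the mean of probes, Kcnmb4 had 0.46 and Kcnrg 0.56. In total 36 of 50 (72%) were below 0, against 58.2% of all measured gene names, with a median of -0.14 against -0.05. With arrays centred on their median, 31 of 50 were below 0, with a median of -0.09 against 0.003 over all gene names.

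Channel genes seen on only part of the arrays give lower bounds, with the dim array set to its lowest level that counted as well above background, or to the probe's own level where that was higher. At 5 h, 6 of 134 channel genes were well above background with EPS alone and 5 without EPS alone, against 627 and 780 of all 31829 gene names. Of these channel genes, 2 in each direction had a bound of 2-fold or more. Over all gene names in that position, the share with such a bound was 24.2% on the higher side and 30% on the lower side. The largest was Cacna1e, the R-type calcium channel pore, which opens at intermediate voltages and is best known in neurons. Its level was -3.11 for EPS at 5 h and -7.42 for no EPS at 5 h, at least 8.96-fold higher. At 0 min it was at -7.62 for EPS and -8.23 for no EPS and not well above background, so EPS at 5 h was also at least 8.56-fold higher than EPS at 0 min. The name has 1 probe and 1 spot, with no second reading on the array.

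Kcnh8, a slowly gating channel of brain, also stood out on the EPS array at 5 h, with a level of -4.44 against -8.32 for no EPS, at least 3.57-fold higher. It was at -7.10 for EPS and -8.07 for no EPS at 0 min, where it was not well above background. The 2 other Kcnh8 probes were well above background on no array, with levels of -8.23 and -8.19 for EPS at 5 h. The Kcnh8 signal was therefore read by 1 of 3 probes, unlike that of Kcne4, where 2 of 2 probes read it. The positions are chr1:156240286-156240345 on the minus strand for Cacna1e, and on the plus strand of chromosome 17 chr17:53045798-53045857 for the brightest Kcnh8 probe, with the other Kcnh8 probes at chr17:53044502-53044561 and chr17:53046231-53046290 (mm9). The first 30 of 60 bases are shown for these probes, since each name rests on a single bright reading.
Cacna1e, only probe: tttctgtcaaattagtgctatgataattga
Kcnh8, brightest probe: ataaacgtataatatcagcacacaagggcc
Kcnh8, other probe on the 5′ side: gacctcacatacaaccttcgagaaggtcat
Kcnh8, other probe on the 3′ side: atctattttcctttttgtgaaggcagagga

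On the lower side at 5 h, Kcng2, a silent subunit that joins other potassium channels, was not well above background with EPS, at -8.63, and stood at -4.26 without EPS, at least 4.31-fold lower. At 0 min its order was the opposite, with -5.95 for EPS and -8.31 for no EPS, so this name was well above background on 1 array at each time. The other Kcng2 probe was well above background on no array and read -8.01 for EPS and -8.00 for no EPS at 5 h. Kcna5, a delayed rectifier of heart and smooth muscle, was at -6.20 for EPS and -5.15 for no EPS, at least 2.07-fold lower. The other Kcna5 probe was well above background on no array. At 0 min, 7 of 134 channel genes were well above background with EPS alone and 4 without EPS alone, against 831 and 573 of all 31829 gene names. Only Kcnh7, a brain channel, reached 2-fold there, with -4.97 for EPS and -7.30 for no EPS, at least 2.14-fold higher. Among all gene names in that position, 23.0% on the higher side and 37.3% on the lower side reached that bound.

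Between the times, Kcnmb2, a BK channel beta subunit, was seen at 0 min and not at 5 h in both settings by its brightest probe. Its level was -6.24 at 5 h and -3.88 at 0 min after EPS, at least 5.14-fold lower, and -5.82 at 5 h and -4.12 at 0 min without EPS, at least 3.24-fold lower. Kcnh2 did likewise, at least 2.0-fold lower at 5 h after EPS and at least 2.96-fold lower without EPS. By these probes, the 2 names were lower at 5 h whether or not the muscle had been stimulated. On at least 1 of the 0 min arrays the other Kcnmb2 probe was not well above background. Kcnj11 was at -6.61 at 5 h and -4.98 at 0 min after EPS, at least 2.61-fold lower, and at least 1.5-fold lower without EPS. The other Kcnj11 probe gave no bound after EPS and at least 5.34-fold lower without EPS. Kcnh7 was at least 2.64-fold lower after EPS, and Scn2a1 at least 2.13-fold lower without EPS. A second Scn2a1 probe, measured on all 4 arrays, differed by less without EPS, at -0.53. On the higher side stood Kcne4, at least 4.46-fold higher at 5 h than at 0 min after EPS and at least 1.33-fold higher without EPS. Of the channel genes seen at 1 of the 2 times, 3 of 5 on the higher side and 4 of 9 on the lower side had a bound of 2-fold after EPS. Without EPS these were 1 of 6 and 3 of 8. Over all gene names in that position the shares were 28% and 40.8% after EPS and 24% and 43% without EPS.

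**Figure D5:**
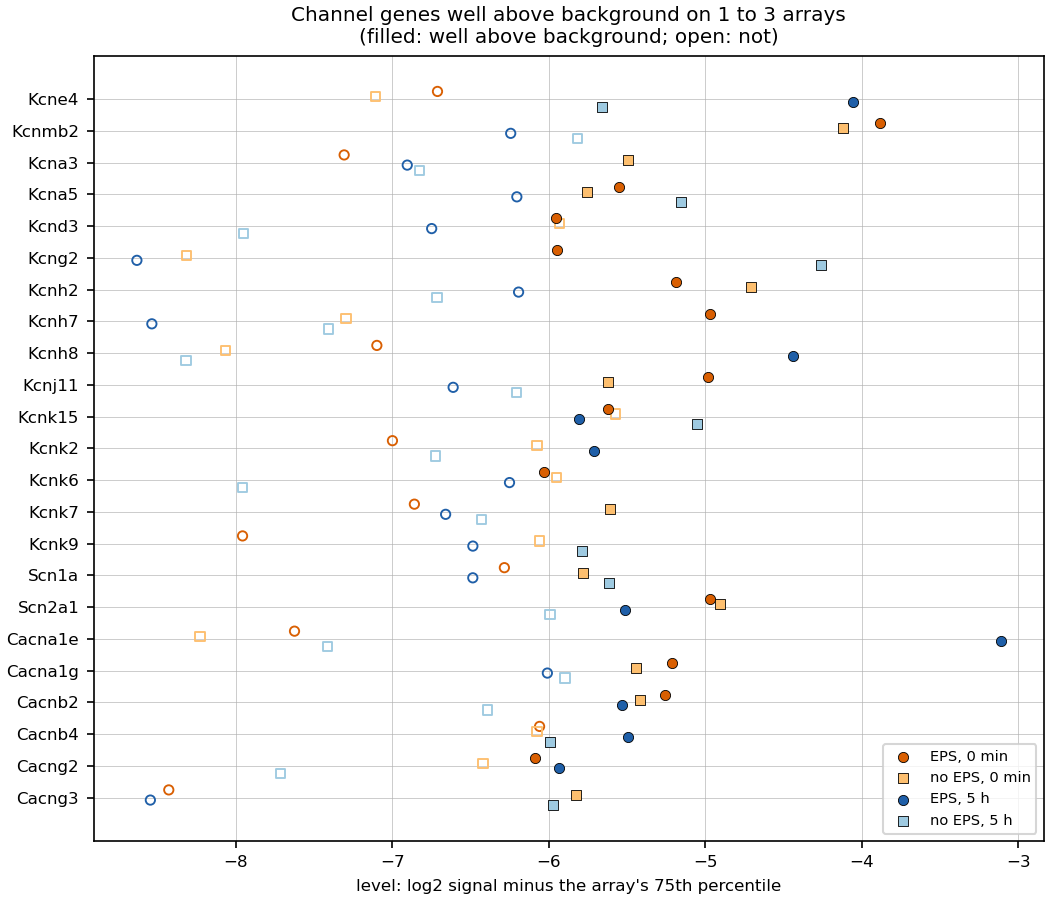
Level on each array of 23 of the 24 channel genes well above background on 1 to 3 arrays (x axis, log2 signal minus the array's 75th percentile; rows, genes; filled points well above background, open points not; 1 array per group, so no error bars). Cacna1e, Kcne4 and Kcnh8 have their highest point on the EPS array at 5 h, and Kcnmb2 and Kcnh2 have filled points at 0 min only.

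The remaining names seen on part of the arrays had bounds under 2-fold or none. Cacna1g, a T-type pore, was well above background at 0 min alone, at -5.21 for EPS and -5.44 for no EPS. Cacnb2 and Kcnk15 were seen on 3 arrays, Cacnb4, Cacng2 and Cacng3 on 2, and Kcna3, Kcnd3, Kcnk2, Kcnk6, Kcnk7 and Kcnk9 on 1. Kcnk2, a stretch-sensitive leak channel, was seen on the EPS array at 5 h alone, at -5.71 against -6.72 for no EPS, at least 1.48-fold higher.

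Repeated probes give an internal check on these readings. For 13 channel names, 2 or more probes were well above background on all 4 arrays. The brightest and the other probe had the same sign of difference for 10 of 13 at 0 min and 10 of 13 at 5 h in EPS against no EPS. The time difference had the same sign for 13 of 13 after EPS and 11 of 13 without EPS. The difference of effects had the same sign for 11 of 13. Names on which the probes differed in size most were Cacna1a after EPS and Cacna1h without EPS.

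Of 48 other genes of membrane excitability, chosen as a list of pumps, chloride and leak channels, anchors and channel adaptors, 44 were on the array and 37 were measured on all 4 arrays. One, Stac, was 2-fold higher with EPS at 5 h and none was 2-fold lower, and at 0 min none was 2-fold higher or lower. STAC is an adaptor that binds L-type calcium channels and slows their inactivation. Its level was -3.19 for EPS and -5.25 for no EPS at 5 h, 4.16-fold higher, and -3.28 for EPS and -4.16 for no EPS at 0 min. EPS was above no EPS at both times, by log2 differences of 2.06 at 5 h and 0.89 at 0 min, and without EPS Stac was 2.13-fold lower at 5 h than at 0 min. Stac3, the adaptor that muscle needs for excitation-contraction coupling, differed by -0.35 at 5 h and 0.19 at 0 min. The list's median log2 difference of EPS minus no EPS was -0.05 at 5 h and 0.04 at 0 min. For 5 h minus 0 min the list's median was -0.35 after EPS, with 25 of 37 below 0 and none past 2-fold, and -0.17 without EPS, with 26 of 37 below 0 and Stac alone past 2-fold.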

How the data were processed

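Total RNA of mouse 3D engineered muscle was hybridised to 4 Agilent arrays of 1 slide and 1 scan time, labelled with Cy3 as a single colour, per the labels' protocols. The labelling protocol speaks of leukocytes and every other label of engineered muscle. Feature Extraction 10.7.3.1 made the deposited spot intensities and subtracted the background, per the file headers. The deposited value table equalled them at 44397 of 44397 spots on each array. None of the 43020 spots other than controls was saturated, and the 112 to 141 flagged as outliers were not used. Spots of a probe were averaged on the log2 scale; the level is log2 of the authors' deposited intensity minus the array's 75th percentile. Depth of reading is not defined for arrays, and their number, 1 per group, limits the precision.

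Differences were taken between probes well above background on both arrays compared, on all 4 for the difference of effects. No test was run; the size rule was 2-fold, and the share of all gene names past it is the background. Lower bounds and spot errors (399 probes printed 10 times) follow the same flags. The software error of a difference combines the scanner software's errors of its arrays. Named members were the listed muscle channel genes, in each comparison those past 2-fold and the 8 largest in each direction, up to 4 bounds per direction, and per subfamily the widest range; most other members are named to account for them, some genes are not reported here, and the repeated probes, Stac and Stac3 were picked with their values seen. Members and lists were chosen with earlier results of these data known. By accession, 124 of 134 members matched RefSeq (GRCm38.p6), 123 under the same symbol; positions are the array files' own (mm9). The calculation was checked on simulated data. Alternatives were normexp (offset 50), quantile normalization, median centring, other filters, the mean of probes, outliers kept and the value table. Python 3.11.15, pandas 2.3.3, R 4.3.3 and limma 3.58.1 were used.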

Additional observations from a re-analysis of the deposited data

How the results depend on the processing

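No paired analysis was possible because each group has 1 array and no test was run. Differences past 2-fold depended on the background correction: under normexp, whose offset of 50 shrinks dim signals by construction, Kcne4 gave 0.64 for EPS at 5 h, and Cacna1a 0.52 and Kcnq1 -0.60 for 5 h against 0 min after EPS. Kcnq1 was also under 2-fold with quantile normalization (-0.89) and median centring (-0.91). The counts under normexp were 0 higher for EPS at 5 h, 0 higher and 0 lower for 5 h against 0 min after EPS, and 0 lower for the difference of effects. Normexp also moved the median level to -1.98 for no EPS at 0 min, -2.16 for EPS at 5 h and -2.01 for no EPS at 5 h, against -2.48, -2.56 and -2.36. Quantile normalization and median centring each gave 2 higher and 0 lower for 5 h against 0 min after EPS and 0 lower for the difference of effects. The 2 higher were Cacna1a and Kcnq1ot1. The mean of probes gave 0 higher for 5 h against 0 min after EPS, with Cacna1a at 0.56. Requiring all 4 arrays gave 0 higher for EPS at 5 h, since Kcne4 is then left out. With no filter, where most added names are background, the EPS comparison had 3 higher and 7 lower at 0 min and 8 higher and 9 lower at 5 h, and the counts were 7 and 10 for 5 h against 0 min after EPS, 7 and 10 without EPS, and 13 and 11 for the difference of effects. Keeping outlier spots and the value table changed no count. Of 234 differences of named members, 213 kept their sign under normexp, 210 under median centring and 222 under quantile normalization. The members' median changed sign with no filter for EPS at 0 min, at -0.14, and for the difference of effects, at 0.04, and under median centring for 5 h against 0 min without EPS (0.03); after EPS it ranged from -0.30 to -0.10, with 33 of 55 below 0 under median centring. Counting any probe, 51 names were well above background on all 4 arrays. Signal over background limits the 24 names that have it on 1 to 3 arrays and the 60 that have it on none; the cause of the other changes was not tested.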
